A study of Caenorhabditis elegans with 34 samples.

Results

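Cells of mixed C. elegans embryos that carried green fluorescent protein (GFP) under the elt-2 promoter were compared with the GFP-negative cells of the same dissociated embryos, in 6 of the 34 libraries of the series. The members were chosen by their labels alone: 3 libraries of sorted GFP-positive cells, labelled intestine, and 3 of sorted GFP-negative cells, labelled non-intestine. Both groups came from strain JM149, whose integrated transgene caIs71 joins elt-2p to a GFP and HIS-2B histone fusion, ends in unc-54 sequence and carries the marker rol-6(su1006). Embryos were treated with chitinase for 20 min and pronase E for 5 min and passed 100 times through a 21-gauge syringe needle. Then 300000 GFP-positive and 1000000 GFP-negative cells were taken per library. Polyadenylated RNA was sequenced, and the labels call replicates 1, 2 and 3 biological replicates. Besides these, 2 libraries of unsorted dissociated embryo cells (replicates 1 and 2) and 2 of whole embryos (replicates 2 and 3) were used as values beside the sort. The sorted L1 and L3 larval libraries were used as separate samples. Larval cells were released with SDS and DTT and a longer pronase E treatment, with no chitinase listed. Stage and dissociation therefore cannot be told apart where embryo is compared with larvae.

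ELT-2 is a GATA transcription factor of the C. elegans intestine, the digestive and storage organ of the worm, which descends from the E blastomere of the early embryo. Its promoter switches on early in that lineage and stays active, so a nuclear GFP under it marks gut cells. Gut precursors that have not yet switched the promoter on carry no marker and would be sorted as GFP-negative. The rows of the count table carry no gene identifier, and no row was matched to a gene. Rows are therefore called by their number, counted from 1 in the order of the table, and the intestine label was not checked against elt-2 or other marker genes. In bulk RNA, fewer cells of a type and less RNA per cell cannot be told apart.

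The 6 libraries held between 20252498 and 47153851 counts over 16762 rows, of which 16758 were tested. Levels are given as CPM, the counts of a row scaled to a common library total. GFP-positive cells had 11110 ± 514 (SD, n = 3) rows of 1 CPM or more, and GFP-negative cells had 11716 ± 309 (SD, n = 3), with overlap. Counts were more concentrated in GFP-positive cells. The 10 most abundant rows took 20.7%, 6.82% and 7.04% of the counts in GFP-positive replicates 1, 2 and 3, against 5.82%, 5.18% and 4.62% in GFP-negative cells. The 1000 most abundant rows took 64.3 ± 4.81% (SD, n = 3) in GFP-positive and 57.8 ± 1.88% (SD, n = 3) in GFP-negative cells. The groups did not overlap in either measure, and the exact two-sided permutation p of 0.1 is the smallest that 3 against 3 libraries allow. The most abundant 300 rows made up 50% of the counts in GFP-positive replicate 1, while 608 and 537 rows were needed in replicates 2 and 3. GFP-negative cells needed 654, 694 and 777.

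The sort asked which transcripts were more abundant in marked gut cells than in the other cells of the embryo. By edgeR's quasi-likelihood test at a Benjamini-Hochberg adjusted p under 0.05, 7513 of 16758 rows (44.8%) differed. Higher levels in GFP-positive cells were called for 3144 rows (18.8%) and lower levels for 4369 rows (26.1%). Of the 3144 higher rows, 2931 had no overlap between the 3 GFP-positive and the 3 GFP-negative libraries, and of the 4369 lower rows 3654 had none. Over all tested rows, called or not, 3308 (19.7%) lay higher and 5228 (31.2%) lower without overlap. The number of lower calls depended on which libraries entered the fit, which also moved the scaling and the rows tested. With the 6 sorted libraries alone, 14613 rows were tested, of which 2994 were higher and 1144 lower, and with the replicate number as a block in those 6 libraries 3157 were higher and 1423 lower. The main fit left out the pairing by replicate number. With the replicate block over all libraries, 3290 rows were higher and 5050 lower. Called in the same direction in all 4 fits were 2679 higher and 968 lower rows. These 2679 rows took 48.3 ± 8.58% (SD, n = 3) of the counts of GFP-positive and 13.7 ± 0.87% (SD, n = 3) of those of GFP-negative cells, and the 968 lower rows took 3.7 ± 1.58% and 14.6 ± 0.977% (SD, n = 3 each).

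**Figure D1:**
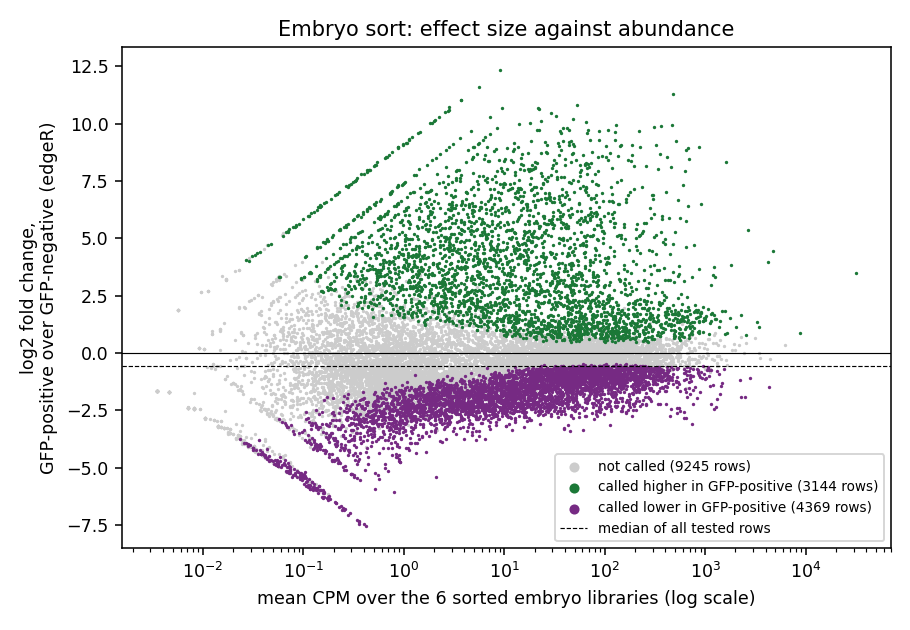
Log2 fold change of GFP-positive over GFP-negative embryo cells from edgeR (vertical axis) against the mean CPM over the 6 libraries (horizontal axis, log scale), 1 point per tested row, with called rows coloured and the dashed line at the median of all tested rows, -0.55. Higher rows reach 11.28 among those of at least 10 CPM, while lower rows of that abundance end at -3.42. The slanted lines of points at low CPM are rows with 0 or few counts in 1 group, whose fitted values depend on the prior count.

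Enrichment was far deeper than depletion. Among the 7594 rows that averaged 10 CPM or more in these libraries, 1732 (22.8%) were called higher and 2409 (31.7%) lower. Of the higher ones 996 passed 4-fold, 578 passed 16-fold and 118 passed 256-fold. Of the lower ones 397 passed 4-fold and 0 passed 16-fold. The median log2 fold change was 2.52 for the higher and -1.2 for the lower rows of this abundance. The median of all tested rows was -0.55, and it was -0.82 with library totals in place of TMM scaling and -0.19 with the 6 libraries alone. Relative to -0.55, 1223 higher and 77 lower rows of at least 10 CPM passed 4-fold. The medians of rows of 10 to 100, 100 to 1000 and at least 1000 CPM were -0.35, -0.14 and 0.3. All lie above -0.55, so this shift raises the higher number and reduces the lower one more than their own medians would. Over all abundances 1280 higher and 252 lower rows passed 16-fold, and the median was 3.36 for higher and -1.74 for lower rows. It was 3.3 and -1.73 when the 87 higher and 157 lower rows with 0 counts in the whole other group were set to the bound that 3 counts over that group allow.

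Among called rows, the median effect size was smaller in more abundant rows up to 1000 CPM, on both sides. Rows with few counts tend to pass the threshold only with a larger fold change, so the choice by call favours this trend. Rows with a mean of 1 to 10 CPM had a median log2 fold change of 3.93 where called higher (966 of 4743 rows) and -2.1 where called lower (1258 rows). From 100 to 1000 CPM the medians were 1.7 (541 of 2172 rows) and -1.05 (655 rows). At 1000 CPM and above, 34 of 97 rows were higher, with a median of 1.64, and 25 were lower, with a median of -1.17. Those 97 rows held 23.8% of the counts of GFP-positive cells and 17.1% of those of GFP-negative cells on average.

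The 10 highest log2 fold changes among called rows of at least 10 CPM lay between 10.05 and 11.28. Row 1871 was the most abundant of them, with 965, 1212 and 685 CPM in GFP-positive replicates 1, 2 and 3, against 0.997, 0 and 0.167 CPM in GFP-negative cells. Its log2 fold change was 11.28 ± 1.12 (SE), with an edgeR adjusted p of 2.58e-08. Unsorted cells held 80 and 78.4 CPM and whole embryos 102 and 55 CPM, between the sorted fractions. Row 5325 had 118, 83 and 119 CPM in GFP-positive cells, against 0.0212, 0 and 0.167 CPM in GFP-negative cells, and a log2 fold change of 10.82 ± 0.84 (SE; edgeR adjusted p 6.83e-10).

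Row 11537 had 167, 117 and 109 CPM in GFP-positive cells, against 0.297, 0 and 0.0556 CPM in GFP-negative cells (10.06 ± 0.79, SE; edgeR adjusted p 8.72e-10). Row 5214, at 54.4, 25.1 and 28.4 CPM against 0.0636, 0 and 0.0278 CPM, had the smallest error of the 10 and the lowest edgeR adjusted p, 2.09e-11. All 10 rows had no overlap between the groups, as had 19.7% of all tested rows in that direction, and their choice by fold change favours this. All 10 had 0 counts in GFP-negative replicate 2. That library was also the shallowest of the 6. The rows 2168 and 10516 each had 3 counts in all GFP-negative libraries together. Their pooled CPM ratios were 1366 (exact 95% interval 467 to 6625) for row 2168 and 1479 (506 to 7173) for row 10516, covering counting error only. Row 2168 was also the most variable of the 10 in GFP-positive cells, at 51.7, 10.7 and 67.8 CPM.

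The remaining rows of the 10 were 6310, 5708, 6430 and 6895, with GFP-positive levels from 35.5 to 128 CPM and GFP-negative levels from 0 to 0.139 CPM. In unsorted embryo cells all 10 rows stood below every GFP-positive and above every GFP-negative library. In 783 of the 1732 higher rows of at least 10 CPM (45.2%) both unsorted cell libraries lay between the sorted groups in this way, and in 547 of the 2409 lower rows (22.7%). The unsorted libraries did not enter the contrast that chose these rows.

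**Figure D2:**
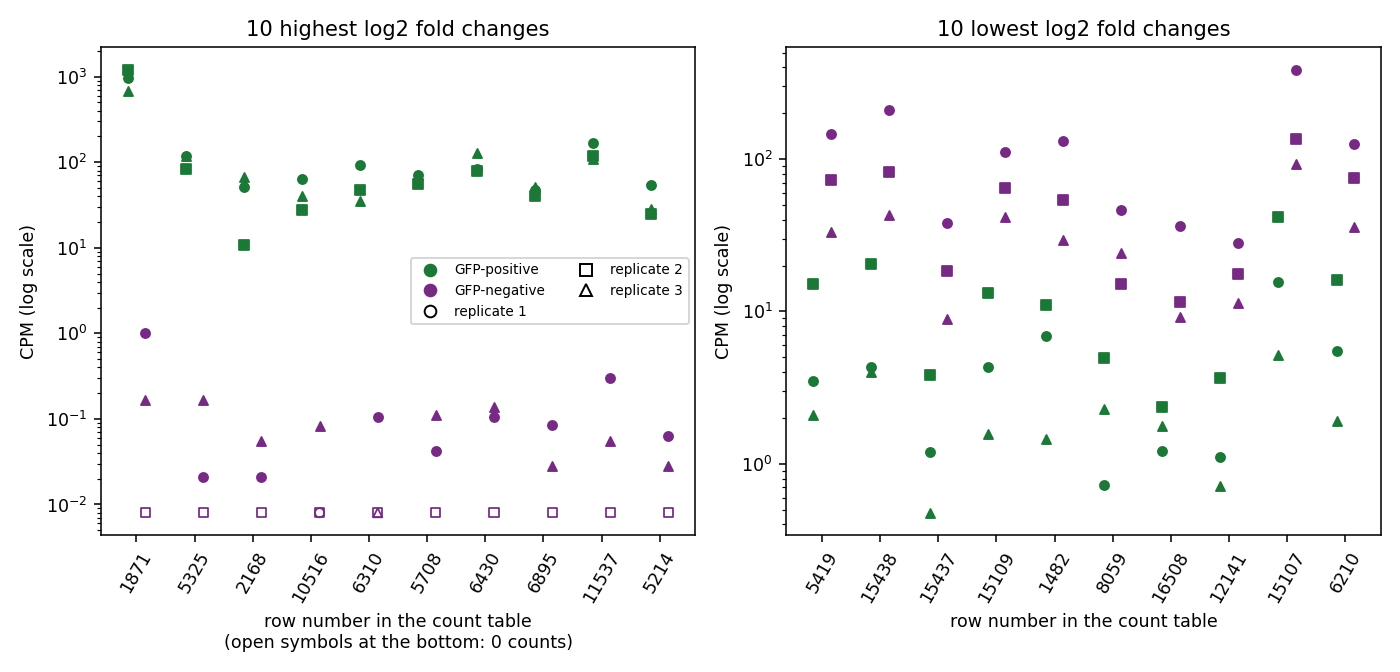
CPM (vertical axes, log scale) of the 10 rows with the highest (left) and the 10 with the lowest (right) log2 fold change among called rows of at least 10 CPM, 1 symbol per library, green for GFP-positive and purple for GFP-negative cells, with the shape giving the replicate. On the left GFP-positive libraries sit at 10.7 CPM and above and GFP-negative ones at 0.997 CPM and below. On the right GFP-positive replicate 2 and GFP-negative replicate 1 are the highest of their groups in each of the 10 rows.

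A further 20 rows had at least 1 CPM in each GFP-positive library and 0 counts in all 3 GFP-negative libraries. A total of 3 counts over that group would be 0.029 CPM. The most abundant was row 13522, with 32.1, 13.7 and 8.75 CPM in GFP-positive cells, which was at least 631-fold higher than that floor. Row 97, with 6.65, 10.6 and 16.3 CPM, was at least 375-fold higher. No row showed the opposite pattern of 0 counts in all GFP-positive cells and at least 1 CPM in each GFP-negative library. With a limit of 1 CPM in place of 0 counts, 754 rows were at or above it in every GFP-positive and below it in every GFP-negative library, and 458 showed the reverse.

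The 10 lowest log2 fold changes among called rows of that abundance lay between -3.42 and -3.12, with edgeR adjusted p from 6.93e-05 to 0.00863. Row 15438 had 4.31, 20.5 and 3.98 CPM in GFP-positive replicates 1, 2 and 3, against 209, 82.2 and 43.2 CPM in GFP-negative cells, a log2 fold change of -3.37 ± 0.66 (SE; edgeR adjusted p 0.000325). Row 12141, at 1.1, 3.67 and 0.715 CPM against 28.3, 17.5 and 11.4 CPM, had the smallest error, with -3.17 ± 0.54 (SE; edgeR adjusted p 6.93e-05). Row 15107 was the most abundant, at 15.5, 41.4 and 5.21 CPM in GFP-positive and 387, 136 and 93.5 CPM in GFP-negative cells. In all 10 rows, chosen for their fold change, the groups did not overlap, as in 31.2% of all tested rows in that direction.

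These 10 rows shared a pattern over replicates. GFP-positive replicate 2 was the highest of its group in 10 of 10, and GFP-negative replicate 1 was the highest of its group in 10 of 10. Of all 7594 rows of at least 10 CPM, 42.4% were highest in GFP-negative replicate 1. A choice by mean fold change also favours rows with 1 very high GFP-negative library. How often GFP-positive replicate 2 was highest over all rows was not counted. The paired log2 ratio of row 15438 was -5.28 in replicate 1, -1.75 in replicate 2 and -3.12 in replicate 3. Without the replicate 1 pair, 5 of the 10 rows lost their call: 5419 (-2.55, edgeR adjusted p 0.0678), 15109 (-2.78, 0.0637), 8059 (-2.39, 0.0877), 15107 (-2.25, 0.103) and 6210 (-2.55, 0.0707). Row 15107 also lost it without GFP-negative replicate 1 alone (-2.19, edgeR adjusted p 0.0566). In 8 of the 10 rows both whole-embryo libraries were above every GFP-negative library, as for row 12141 with 124 and 103 CPM. That position was found in 468 of the 2409 lower rows of at least 10 CPM (19.4%). Rows 15437 and 15438, and rows 15107 and 15109, stand next or near to each other in the table, whose order is not explained in the sources used here.

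Of the 5 rows with the largest mean share of counts in GFP-positive cells, 4 were called higher. Of the 97 rows of 1000 CPM and above 35.1% were, and rows chosen by their level in GFP-positive cells are more likely to be higher there. Row 1926 took 6324, 10309 and 10349 CPM in GFP-positive replicates 1, 2 and 3, against 328, 597 and 581 CPM in GFP-negative cells, a log2 fold change of 4.45 ± 0.93 (SE; edgeR adjusted p 0.000615). Row 10322 took 9985, 5955 and 7385 CPM, against 331, 801 and 742 CPM (3.97 ± 0.5, SE; edgeR adjusted p 1.02e-06). Both were far above their levels in unsorted cells, which were 891 and 1477 CPM for row 1926 and 1741 and 1821 CPM for row 10322.

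Rows 3908 and 11114 differed less, and row 10212 is described with replicate 1. Row 3908 took 11147, 9439 and 11085 CPM in GFP-positive and 7841, 6397 and 6697 CPM in GFP-negative cells, with a log2 fold change of 0.88 ± 0.29 (SE; edgeR adjusted p 0.0187). That call was lost without GFP-positive replicate 1 (0.57, adjusted p 0.124), without GFP-negative replicate 2 (0.77, adjusted p 0.0731), without the replicate 1 pair (0.74, adjusted p 0.0872) and without the replicate 3 pair (0.81, adjusted p 0.103). Row 11114 had 4645, 6399 and 8196 CPM in GFP-positive and 6361, 4740 and 6852 CPM in GFP-negative cells, which overlapped (0.37 ± 0.27, SE; edgeR adjusted p 0.262).

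Among the 5 rows with the largest share in GFP-negative cells, 3908, 10212 and 11114 were found again. Row 16607 was the abundant row with a lower level in GFP-positive cells, at 1109, 2964 and 1935 CPM against 7334, 6546 and 5833 CPM in GFP-negative cells (-1.47 ± 0.27, SE; edgeR adjusted p 0.000164). Row 5744 had 2220, 3852 and 4733 CPM in GFP-positive and 6286, 4674 and 4538 CPM in GFP-negative cells, which overlapped and did not pass (edgeR adjusted p 0.521).

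Rows called higher in embryo held 58.2%, 41.5% and 46.4% of the counts of GFP-positive replicates 1, 2 and 3, against 12.9%, 14.1% and 14.7% of those of GFP-negative cells. These rows were chosen on these libraries, so the gap describes them and tests nothing. Without row 10212, the GFP-positive shares were 43.8%, 39.9% and 45.3% of all counts. Libraries outside this contrast were in the same fit. There the 3144 rows held 21.8% and 17.9% of the counts of unsorted cells and 20.8% and 18.4% of those of whole embryos. The 1280 rows over 16-fold higher held 11.8%, 10.5% and 12.5% of GFP-positive counts, against 0.247%, 0.348% and 0.242% of GFP-negative counts. They held 1.63% and 1.86% in unsorted cells.

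Rows chosen in the L3 sort, which shares no library with the embryo sort, gave a separate reading of the label. The 3144 rows called higher in L3 GFP-positive cells (18.8% of tested rows) held 25.7%, 25.5% and 28.8% of the counts of embryo GFP-positive cells, against 12.8%, 12.9% and 12.9% in embryo GFP-negative cells. Unsorted embryo cells held 14.7% and 15.3%. The median embryo effect of these rows was 2.24 on the log2 scale and that of the other tested rows was -0.8, with 1935 called higher and 222 lower. Over all tested rows the embryo sort called 18.8% higher and 26.1% lower. The 3178 rows called lower in L3 (19% of tested rows) held 18.1%, 24.8% and 23.8% of embryo GFP-positive counts and 36.2%, 32.2% and 33.3% of embryo GFP-negative counts. Their median in the embryo sort was -0.87, against -0.39 for all other rows, with 140 called higher and 1577 lower, beside the same embryo shares of 18.8% and 26.1%. The L3 rows were called in the same fit, so embryo and L3 shared the estimate of spread.

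**Figure D3:**
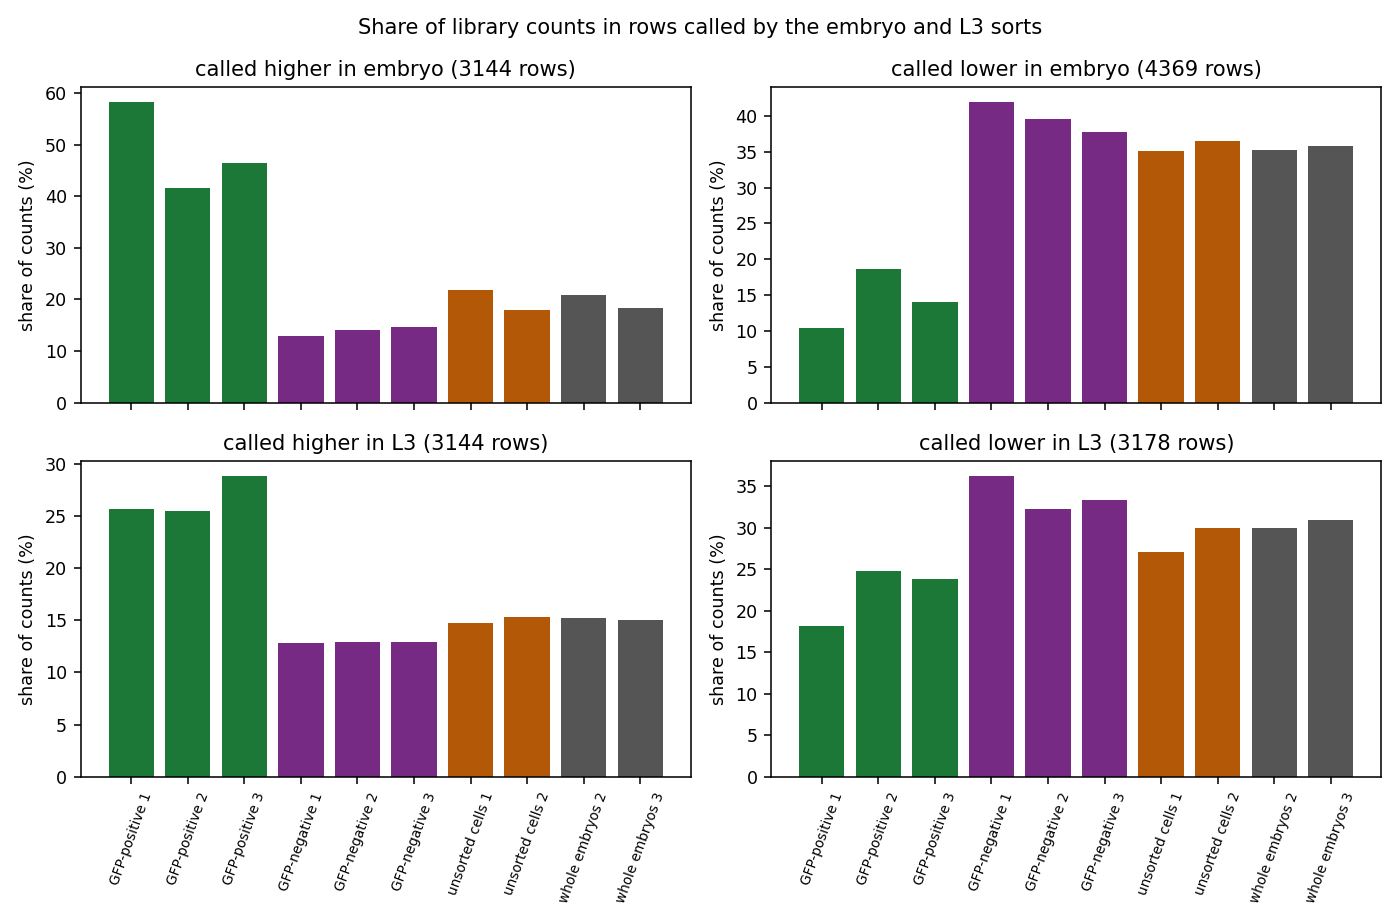
Share of each embryo library's counts (vertical axes, percent, starting at 0) in the rows called higher or lower by the embryo sort (top) and by the L3 sort (bottom), 1 bar per library. For the L3 sets, called by the L3 contrast of the same fit, GFP-positive bars lie between 25.5% and 28.8% for higher rows and GFP-negative bars between 12.8% and 12.9%. For lower rows GFP-positive bars lie between 18.1% and 24.8% and GFP-negative bars between 32.2% and 36.2%.

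The sort called 32.8% of tested rows in L1 and 37.7% in L3. Counts for the L1 sort were available for replicates 1 and 3 only, which is 2 libraries per fraction, and 2 sequencers were used among the L1 replicates. Each of the 10 highest rows was also called higher in the L1 sort (19.2% of tested rows were) and in the L3 sort (18.8%), with log2 fold changes of 4.34 to 9.02 in L1 and 3.71 to 7.01 in L3. Row 11537 was the most abundant of them in larval gut cells, at 951, 1016 and 1026 CPM in L3 GFP-positive and 33.6, 12.3 and 14.9 CPM in L3 GFP-negative cells. Of the 10 lowest rows, 1 was called lower and 3 higher in L3 GFP-positive cells, and 2 were called lower and 1 higher in L1, where 13.6% of tested rows were lower. These counts are too close to the shares over all tested rows to be a result about these 10 rows. The difference between the embryo and L3 effects was called for 20.8% of tested rows, 9.72% higher and 11.1% lower in embryo, and for 18 of these 20 rows. These 20 rows were chosen for extreme embryo effects, which enter that difference, so their number is no support for a stage difference. In L3 the log2 fold change of row 12141 was 1.96 ± 0.52 (SE), with an edgeR adjusted p of 0.00479, while in L1 it was -2.44 ± 0.7 (SE), with an adjusted p of 0.00931. The abundant row 1926 had 3.27, 8.65 and 0.546 CPM in L3 GFP-positive cells, against 3.85, 18.3 and 13.6 CPM in L3 GFP-negative cells, a difference that did not pass (edgeR adjusted p 0.139). Row 10322 stayed abundant in L3, at 3339, 4164 and 6919 CPM in GFP-positive and 2764, 3827 and 4479 CPM in GFP-negative cells, with no call (edgeR adjusted p 0.596). In L1 rows 1926 and 10322 were both called lower in GFP-positive cells, the reverse of embryo. Row 1926 had 4.73 and 1.52 CPM there, against 85.3 and 33.1 CPM in L1 GFP-negative cells (-4.07, edgeR adjusted p 0.00757). Row 10322 had 903 and 1981 CPM, against 3854 and 7352 CPM (-1.83, edgeR adjusted p 0.014).

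Replicate 1 stood apart from replicates 2 and 3. Across rows, log2 CPM of GFP-positive replicate 1 correlated at 0.929 and 0.938 with replicates 2 and 3, which correlated at 0.964 with each other. GFP-negative replicate 1 correlated at 0.943 and 0.954 with replicates 2 and 3, and those at 0.967. These are correlations over 16758 rows, which are not independent replicates. GFP-positive replicate 1 had at least 1 count in 14268 rows, against 15779 and 15735 in replicates 2 and 3, although its total of 34582879 counts lay between their 43019701 and 29377214. With 1 library per number in each group, these differences are described and not tested.

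Row 10212 made the largest single difference. It took 14.5% of the counts of GFP-positive replicate 1, against 1.58% and 1.05% in replicates 2 and 3 and 0.804%, 1.05% and 0.123% in GFP-negative replicates 1, 2 and 3. The Wilson 95% interval in the first, which covers counting error only, was 14.4643% to 14.4878%. Unsorted cells of replicate 1 had 5.35% and those of replicate 2 had 0.746%, so both the unsorted and the GFP-positive library of replicate 1 were high, while its GFP-negative library was not. The row was called higher (log2 fold change 3.5 ± 0.93, SE; edgeR adjusted p 0.00451), and the call was lost without GFP-positive replicate 1 (1.02, adjusted p 0.258) and without the replicate 1 pair (1.29, adjusted p 0.226).

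Rows 10213 and 10210 moved with it. Row 10213 had 8374, 771 and 676 CPM in GFP-positive and 320, 520 and 66.4 CPM in GFP-negative cells. Its counts were 5.78%, 4.89% and 6.43% of those of row 10212 in GFP-positive and 3.99%, 4.94% and 5.4% in GFP-negative cells. Row 10210 had between 2.86% and 8.46% of the counts of row 10212 over the 10 embryo libraries, in which row 10212 itself varied 118-fold. Over all 30 libraries with a column, row 10213 had between 3.26% and 11.6% of the counts of row 10212. The neighbouring row 10211 had 173, 24.2 and 57.5 CPM in GFP-positive and 6.26, 23.7 and 4.53 CPM in GFP-negative cells. Unlike rows 10210, 10212 and 10213, it was higher in GFP-positive replicate 3 than in replicate 2. Row 10213 lost its call without GFP-positive replicate 1 (1.31, edgeR adjusted p 0.156). Row 10210 was singled out after its values were seen. Reads that overlapping or near-identical genes could share were counted in a way not given in the sources used here, so whether these rows share reads was not tested.

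**Figure D4:**
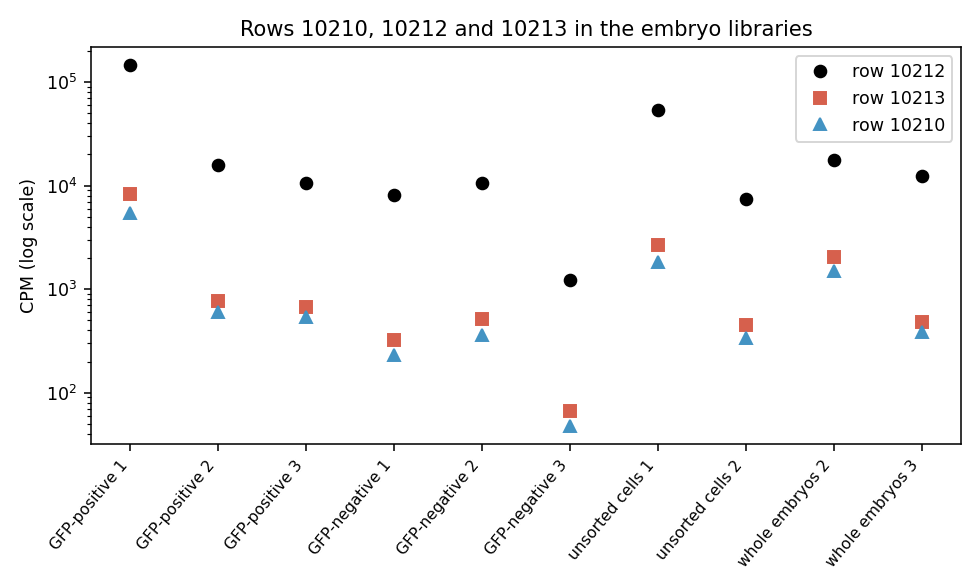
CPM (vertical axis, log scale) of rows 10212, 10213 and 10210 in the 10 embryo libraries, 1 symbol per row and library. Row 10212 is the highest of the 3 in each library, and the 3 rows move together, with GFP-positive replicate 1 highest, unsorted replicate 1 next and GFP-negative replicate 3 lowest.

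Without row 10212, the 10 most abundant rows took 7.84%, 5.66% and 6.44% of the counts of GFP-positive replicates 1, 2 and 3 and 5.39%, 4.48% and 4.63% of those of GFP-negative cells. GFP-positive replicate 1 still had the largest share, by a smaller margin.

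A wider set of rows set replicate 1 apart. Among the 7594 rows of at least 10 CPM, 32 were over 4-fold above and 102 over 4-fold below both other replicates in GFP-positive replicate 1. In GFP-positive replicate 2 these numbers were 53 and 1, and in replicate 3 they were 5 and 17. In GFP-negative cells they were 24 and 87 in replicate 1, 25 and 14 in replicate 2 and 1 and 16 in replicate 3. The 102 low rows had median levels of 1.94, 14.2 and 15.1 CPM in GFP-positive replicates 1, 2 and 3, against 19.3, 31.2 and 34.8 CPM in GFP-negative cells. Of them 38 were called lower in GFP-positive cells, 15 higher and 49 neither, where 31.7% of the 7594 rows were lower and 22.8% higher.

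The same 102 rows were low in other libraries of replicate 1. Levels in those libraries were not compared in choosing the rows, although GFP-negative libraries entered the mean of 10 CPM. In unsorted cells 101 of the 102 were lower in replicate 1 than in replicate 2, with medians of 16.3 and 52 CPM, while 59.2% of all 7594 rows were lower there. In GFP-negative cells 74 of the 102 (72.5%) were lowest in replicate 1, against 31.9% of all 7594 rows. Of the 32 high rows, 26 were higher in unsorted replicate 1 than in unsorted replicate 2, against 40.8% of all rows, and 24 were highest in GFP-negative replicate 1, against 42.4%.

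The extremes of these lists were rows 3397 and 14322. Row 3397 had 201, 13.2 and 5.68 CPM in GFP-positive replicates 1, 2 and 3, against 0.297, 0.148 and 0.111 CPM in GFP-negative cells. It was called higher with and without replicate 1. Row 14322 had 1 count, or 0.0289 CPM, in GFP-positive replicate 1, while replicates 2 and 3 had 7 and 4.66 CPM, and GFP-negative cells had 11, 25 and 23 CPM. Its log2 fold change was -2.1 ± 0.99 (SE; edgeR adjusted p 0.0883), and it passed with the replicate block, at -2.89 and 0.0136. Rows 6191 and 996 had the same 0.0289 CPM in GFP-positive replicate 1. Both were called lower (-2.81 ± 0.85 and -2.62 ± 1.03, SE; edgeR adjusted p 0.0108 and 0.0443), and both calls were lost with the 6 sorted libraries alone (0.0874 and 0.109) and with the block in those 6 (0.0786 and 0.0729). Row 996 also lost its call without any 1 of the 6 libraries, at adjusted p from 0.058 to 0.0902. Row 10983 had 54.9, 5.42 and 1.26 CPM in GFP-positive and 63.6, 9.13 and 9.56 CPM in GFP-negative cells, high in replicate 1 of both fractions and with no difference called (edgeR adjusted p 0.939). Without GFP-positive replicate 1 it passed as lower, at -3.14 and 0.0436.

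**Figure D5:**
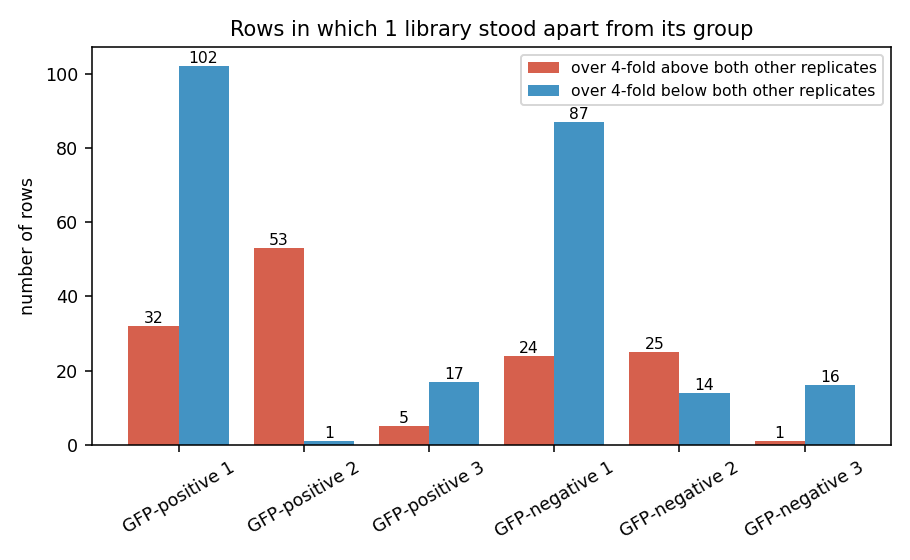
Number of rows (vertical axis, from 0) over 4-fold above (red) or below (blue) both other replicates of the same group, per library, among the 7594 rows averaging 10 CPM or more. GFP-positive replicate 1 has 102 and GFP-negative replicate 1 has 87 rows below both others, and GFP-positive replicate 2 has 53 above.

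The pair of replicate 1 most often had the largest log2 ratio in size between the sorted fractions, above all in lower rows. Of the 7594 rows, 2365 were higher in GFP-positive cells in all 3 pairs, 3624 lower in all 3 and 1605 mixed. The log2 ratio of GFP-positive to GFP-negative was largest in size in pair 1 for 56.3% of rows, in pair 2 for 14.9% and in pair 3 for 28.8%. Among called lower rows the median log2 ratio was -1.58 in pair 1, -0.79 in pair 2 and -1.15 in pair 3, and pair 2 was the largest in size in 1.08% of them. Among called higher rows the medians were 2.64 in pair 1, 2.26 in pair 2 and 2.54 in pair 3. Pair 1 was the largest in size in 73.2% of called lower and 41% of called higher rows, where pair 3 was in 36.7% of the higher ones. Over all 7594 rows the medians were -0.47, -0.07 and -0.25. The SD of the ratios over these rows was 2.38, 1.92 and 2.34, so pairs 1 and 3 were close in spread.

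GFP-positive replicate 2 was the library with the most counts in rows of the other fraction. Rows called lower in embryo took 10.4%, 18.6% and 14.1% of the counts of GFP-positive replicates 1, 2 and 3, against 41.9%, 39.6% and 37.7% of those of GFP-negative cells. The same order held for rows called lower in L3, with 24.8% in replicate 2. Of the 53 rows over 4-fold above the other replicates in GFP-positive replicate 2, 44 were called lower and 0 higher, where 31.7% of the 7594 rows were lower and 22.8% higher. Levels in GFP-positive replicate 2 entered both the choice of these rows and the calls. Their median levels were 2.69, 17.4 and 2.35 CPM in GFP-positive cells, against 9.86, 43.4 and 41.5 CPM in GFP-negative cells. The median level of these rows in unsorted cells was 56.9 CPM in replicate 1 and 49.2 CPM in replicate 2. The part of unmarked cells in the GFP-positive libraries was not tested.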

How the data were processed

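Per the submitters' processing notes, HISAT2 2.1.0 and featureCounts 1.6.4 were among the tools used, and fastp 0.20.0 and build ce11 are also listed, with no role or order given. The authors deposited raw counts per row for 30 libraries. How they chose the 16762 rows, and the counting options, are not given in the sources used here. The deposited scaled and log tables were not used.

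Rows with enough counts (edgeR 4.0.16 filterByExpr, minimum count 10) were scaled by TMM and fitted with 1 mean per group over 30 libraries (18 residual degrees of freedom, R 4.3.3). SE is the log2 fold change divided by the square root of F. Interaction contrasts came from the same fit. CPM values use library totals, and log2 CPM a prior count of 2. On simulated data, 9% of 2-fold and 56% of 4-fold changes among 200 of 16758 rows were called in the embryo sort. All other rows were left equal between the embryo groups there, while 44.8% of rows were called in the real data. The threshold was therefore stricter in the simulation, and these rates do not give the power of this sort.

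Replicate numbers pair the samples: deviations from group means correlated at 0.28, 0.26 and 0.16 for numbers 1, 2 and 3, and lower for every other pairing. The main fit did not use this pairing, and the fits with a replicate block did. Replicate pairs differed by more than sampling noise (chi-square per degree of freedom at least 81.7). The edgeR p-values of the fit over 30 libraries measure the spread between libraries within its groups, larval, unsorted and whole samples included. They do not rest on the spread of the compared embryo libraries alone.

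Named rows are the 10 highest and 10 lowest log2 fold changes among called rows of at least 10 CPM, the 5 largest mean shares per fraction, and the 3 rows farthest above and below both other replicates in GFP-positive replicate 1. The comparison, the rule and row 10212 were chosen with earlier results of these data known. Alternatives were limma 3.58.1 voom, DESeq2 1.42.0, other scalings, filters, thresholds and fits, and each library left out. Leaving out replicate pairs was added after seeing the data.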

Additional observations from a re-analysis of the deposited data

Results flagged for a closer look

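The sort effect (log2 fold change of GFP-positive over GFP-negative cells) was compared between embryo and L3 by an interaction contrast in edgeR, which called 3486 of 16758 rows (20.8%). Of the named rows, 22 passed at an adjusted p under 0.05. Rows named for an extreme embryo effect tend to have a smaller one elsewhere by the way they were chosen, so their differences are values and no support for a stage difference.

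All 10 of the highest rows had a larger effect in embryo than in L3. The difference, embryo minus L3, was 4.27 for row 1871, 4.69 for row 5325, 5.99 for row 2168, 4.93 for row 10516, 4.92 for row 6310, 4.31 for row 5708, 3.97 for row 6430, 5.38 for row 6895, 4.54 for row 11537 and 6.34 for row 5214. The last had the smallest SE, 0.68. For row 1871 the difference lost its call without GFP-positive replicate 1, GFP-negative replicate 2 or GFP-negative replicate 3 of embryo (4.04, 3.81 and 3.88) and fell to 1.69 without L3 GFP-negative replicate 2 (edgeR adjusted p 0.687). For row 2168 it was lost without L3 GFP-negative replicate 1 (5.11, adjusted p 0.0811).

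Of the 10 lowest rows 8 passed, with differences of -4.96 for row 5419, -5.03 for row 15438, -4.3 for row 15437, -5.04 for row 15109, -5.75 for row 16508, -5.13 for row 12141, -4.88 for row 15107 and -4.61 for row 6210. Row 16508 was rare in L3, at 0.302, 1.68 and 0.455 CPM in GFP-positive and 0, 0.121 and 0.256 CPM in GFP-negative cells. For rows 15107 and 6210 the call was lost without L3 GFP-positive replicate 2 (-2.86 and -2.54).

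Of the rows named for their abundance, 1926 had a difference of 6.11 ± 1.26 (SE; edgeR adjusted p 0.00166), 10322 of 3.65 ± 0.65 (SE; adjusted p 0.000465), 3908 of 1.59 ± 0.41 (SE; adjusted p 0.00912) and 5744 of -1.84 ± 0.46 (SE; adjusted p 0.00743). Rows 1926 and 10322 were chosen for their level in embryo GFP-positive cells and row 5744 for its level in embryo GFP-negative cells, which favours a difference in the direction found. Row 1926 averaged 8994 ± 2312 CPM (SD, n = 3) in embryo GFP-positive cells and 4.16 ± 4.13 CPM (SD, n = 3) in L3 GFP-positive cells.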

How the results depend on the processing

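With each library or replicate pair left out, the called rows ran from 5096 to 7642, the higher ones from 2548 to 3121 and the lower ones from 2415 to 4521. The lowest of the lower counts came without the replicate 3 pair. The share of GFP-positive counts ran from 34.5 to 49.3% in higher rows and from 10.4 to 15.2% in lower rows, where it was 36.6% in higher rows without GFP-positive replicate 1 and 34.5% without the replicate 1 pair. The embryo minus L3 count ran from 2676 to 4119. With the 6 libraries alone, 4138 rows were called, 1144 lower ones holding 4.24% of GFP-positive counts, and with the replicate block in those 6, 4580 were called, 1423 lower ones holding 4.63%. The replicate block over all libraries called 8340 rows and changed the call of row 14322 and of no other named row, in the sort or its difference from L3. At an adjusted p under 0.01, 4607 were called, 2062 lower ones holding 8.45%, and rows 3908, 6191 and 996 lost their calls. Higher rows were 41.8% of calls under TMM and 31.5% with library totals, which put 20.9% of counts in lower rows. Without row 10212, the shares were 39.3% in higher and 19.8% in lower rows, and 32.6% of calls were higher. The count of 7513 was 7505 with RLE, 7894 with voom and 8642 with DESeq2.

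Rows apart in replicate 1 numbered 211 above and 602 below in GFP-positive and 363 above and 453 below in GFP-negative cells at 2-fold. With a minimum of 1 CPM they numbered 179, 488, 170 and 255.

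Values changed sign for 2 rows of the sort and 5 of the differences. Row 5744 was 0.04 with the 6 libraries, with and without the replicate block. Row 10983 was 0.26 with the 6 libraries, 0.09 with RLE and DESeq2, and from -3.14 to 1.55 with libraries left out (0.02 without the replicate 3 pair); it was called, as lower, without GFP-positive replicate 1. For the difference from L3, with the replicate block, row 14322 was -0.63, row 6191 -0.21 and row 996 -0.23. With voom they were -3.56, -0.98 and -3.17, and row 8059 was 0.13. With library totals, rows 14322 and 6191 were -0.2 and -0.03. With libraries left out, row 14322 ran from -2.12 to 0.68, row 6191 from -0.25 to 0.83, row 8059 from -1.15 to 0.16 and row 3397 from -0.01 to 3.91. With voom the differences of rows 2168, 5419, 15437, 15107 and 6210 missed the threshold. In the sorted L3 libraries row 14322 had at most 0.0377 CPM and row 996 at most 0.0853 CPM. Their L3 effects had SE of 3.32 and 3.31, so the sign of their differences carries little meaning. For all of these changes the cause was not tested.

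Depth limited rare rows: 3 counts over all GFP-negative libraries are 0.029 CPM.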
